A study of Homo sapiens with 6 samples.

Results

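The genes described here encode the translocases of the outer (TOMM) and inner (TIMM) mitochondrial membrane. The rule took protein-coding genes whose symbol is TOMM or TIMM followed by a number, and 25 of the 60612 listed genes met it. The rule uses no measured value, but the family was picked with earlier results of these libraries known. A further gene, TIMM23B-AGAP6, is a readthrough of TIMM23B into its neighbour and was counted apart. The 6 RNA-seq libraries were made from the established human colon cancer line HCT116. The cells of 3 libraries had received LV-NC, a control lentivirus, and those of the other 3 had received LV-SNORA28, a lentivirus that overexpresses the small nucleolar RNA SNORA28. Both groups therefore carried a lentivirus, and neither is described as a single clone. The comparison asks which of the translocase mRNAs differed after SNORA28 overexpression. Nothing in the labels says that the libraries of a group came from separate cultures, so the p-values measure the spread between libraries, which may be technical.

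Nearly all mitochondrial proteins are made in the cytosol and must be imported. The TOM complex recognises them with receptors and passes them through a channel in the outer membrane. From there the TIM23 complex carries proteins with a cleavable presequence into the matrix or inner membrane, the TIM22 complex inserts carrier proteins into the inner membrane, and small TIM proteins escort hydrophobic cargo across the intermembrane space.

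SNORA28 itself was listed at 0 to 0.92 FPKM with LV-NC, against 13.66 to 15.2 FPKM with LV-SNORA28. The RNA was poly(A)-selected, and how much of this signal came from the mature small nucleolar RNA was not tested. FPKM is the number of sequenced fragments scaled to transcript length and to how many fragments of that library were mapped. Of 6 epithelial markers, 5 (EPCAM, CDH1, KRT8, KRT18 and KRT19) were at 1 FPKM or more in every library, while VIL1 was at 0.04 FPKM or less. All 4 leukocyte and all 3 endothelial markers stayed below 1 FPKM, and of 4 fibroblast markers only COL1A1 was above it, at 3.16 to 4.46 FPKM. The summed level of the epithelial list was 758.42 to 845.9 FPKM in LV-NC and 780.08 to 826.78 FPKM in LV-SNORA28. Genes of the mitochondrial genome accounted for 42.7% to 47.72% of all FPKM in the LV-NC libraries and for 35.88% to 38.26% in the LV-SNORA28 libraries. This share did not overlap between the groups, and because FPKM is a relative measure it can bear on every fold change given here. Rescaling each library to the sum of its nuclear genes was therefore run beside the deposited scaling. That sum was 191035.2 to 195885.1 FPKM in LV-NC and 196223.1 to 199376.1 FPKM in LV-SNORA28. In bulk RNA, fewer expressing cells and less RNA per cell cannot be told apart.

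The translocase mRNAs spanned a wide range of levels. Averaged over the 6 libraries, the highest were TOMM20 with 69.0 FPKM, TIMM23 with 54.7 FPKM, TOMM22 with 46.0 FPKM and TOMM7 with 39.5 FPKM. TOMM20, the outer membrane receptor for presequences, lay above 96.4% of all genes tested. At the other end, TIMM8A, TOMM40L and TIMM23B averaged 2.95, 2.84 and 2.71 FPKM. TOMM20L, a copy of TOMM20, averaged 0.063 FPKM and was the 1 gene of the 25 below the filter of a mean of at least 1 FPKM, so 24 were tested. Within pairs of copies a single gene dominated, as TIMM17A had 26.3 FPKM against 3.86 FPKM for TIMM17B, and TOMM40 had 25.1 FPKM against 2.84 FPKM for TOMM40L. TIMM8B, at 12.1 FPKM, was likewise above TIMM8A.

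**Figure D1:**
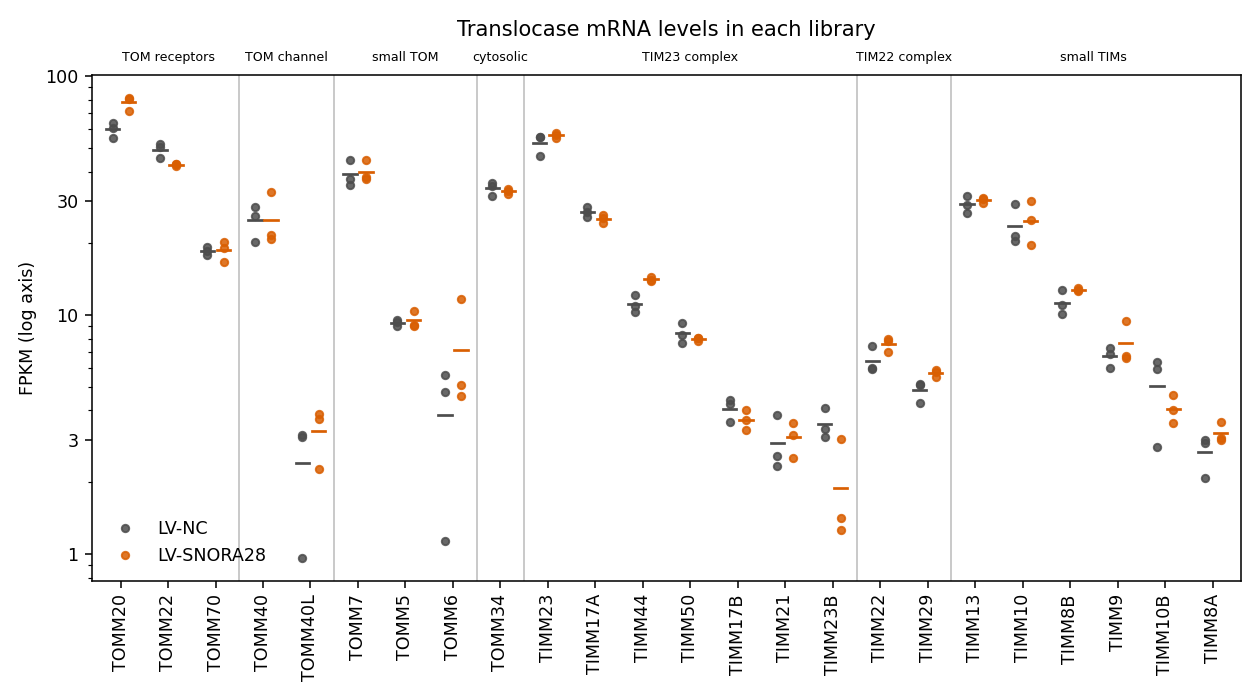
FPKM of the 24 tested translocase genes on a log axis, grouped by complex. Each point is a library, grey for LV-NC and orange for LV-SNORA28, and each bar is the mean of 3 libraries. Most pairs of bars lie close together, TOMM20 and TIMM44 are shifted upward in LV-SNORA28, and TOMM6 and TOMM40L have a single low LV-NC library each, at 1.14 and 0.97 FPKM.

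Few of the translocase genes passed the test, at about the share found among all genes. With limma and Benjamini-Hochberg adjustment over the 12076 genes tested, 2 of the 24 genes had an adjusted p below 0.05, TOMM20 and TIMM44, and both were higher in LV-SNORA28. That is 8.33% of the genes, against 8.91% of all genes tested in either direction, of which 6.81% were higher and 2.10% lower. At an unadjusted p below 0.05 there were 5 translocase genes, against 28.0% of all genes tested, with TOMM20, TIMM44 and TIMM29 higher and TOMM22 and TIMM23B lower. The groups did not overlap in 6 of the 24 genes (25%), against 35.1% of all genes tested. Of these 6, TOMM20, TIMM44, TIMM29 and TIMM8A were higher in LV-SNORA28, against 27.0% of all genes tested in that direction, and TOMM22 and TIMM23B were lower, against 8.16%. The median log2 fold change, on the scale of log2(FPKM + 1), was 0.062 for the 24 genes and 0.0851 for all genes tested. Positive values were found for 16 of the 24 genes (66.7%) and for 66.7% of all genes tested. Quantile normalization moved both medians to about 0, at -0.0196 and -0.0013, and left 10 of the 24 with a positive value. For 20 of the 24 genes the 95% confidence interval lay within a 1.5-fold change in either direction. The exceptions were TOMM6, TOMM40L, TIMM10B and TIMM23B, all of them below 6 FPKM on average.

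**Figure D2:**
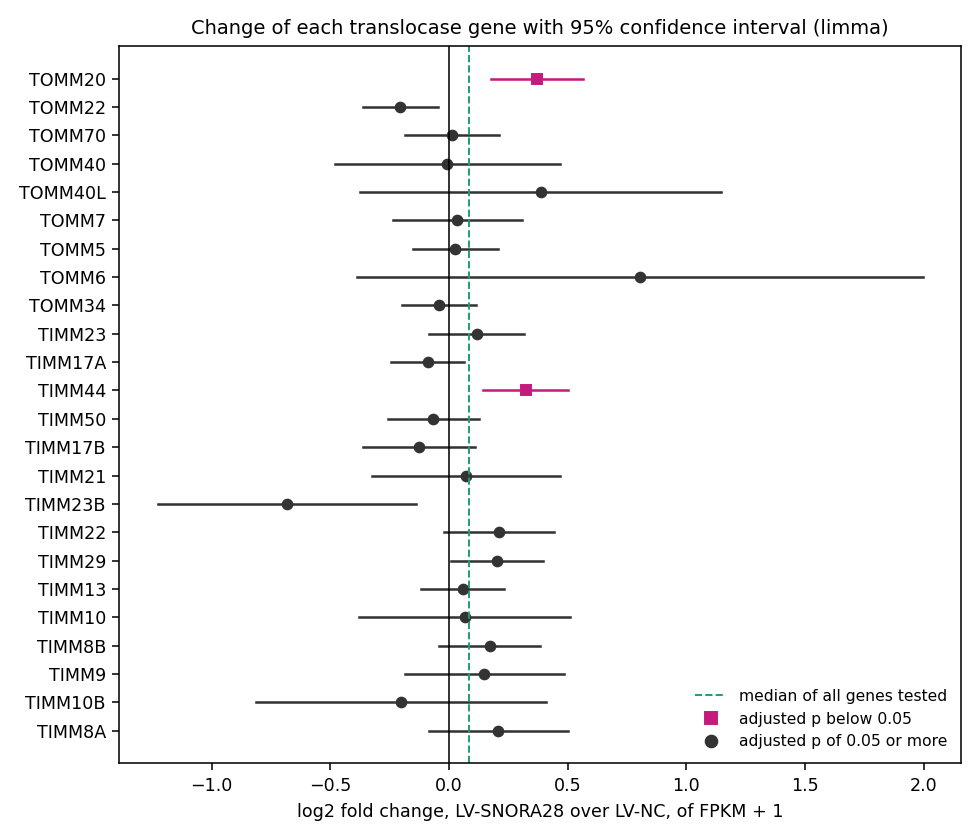
Log2 fold change of FPKM + 1, LV-SNORA28 over LV-NC, for the 24 tested genes, with 95% confidence intervals from limma. Squares mark the 2 genes with an adjusted p below 0.05, TOMM20 at 0.37 and TIMM44 at 0.32, and the dashed line is the median of all genes tested, 0.0851.

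Of the 3 receptors of the TOM complex that were tested, TOMM20 rose and the others did not pass. TOMM20 (ENSG00000173726; GRCh38 chromosome 1, 235109341 to 235128837, minus strand), which holds the small nucleolar RNA gene SNORA14B on its own strand, was listed at 55.39, 60.72 and 64.09 FPKM with LV-NC, against 71.89, 80.5 and 81.58 FPKM with LV-SNORA28. All LV-SNORA28 libraries were above all LV-NC libraries. Its mean rose from 60.1 ± 4.39 to 78.0 ± 5.31 FPKM (SD, n = 3 each). The log2 fold change was 0.37 ± 0.08 (SE; limma adjusted p 0.0398). With nuclear scaling the log2 fold change was 0.34 and the adjusted p was 0.0448 in limma. Under quantile normalization, however, the log2 fold change was 0.29 and the limma adjusted p was 0.0647, and leaving out any single library took it above the threshold, to between 0.0545 and 0.131. In those smaller fits the log2 fold change of TOMM20 was 0.32 to 0.43. They called 278 to 629 of all genes tested, in place of 1076.

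TOMM22 (ENSG00000100216; chromosome 22, 38681957 to 38685421, plus strand), the receptor that also holds the complex together, was listed at 45.54, 50.51 and 52.05 FPKM with LV-NC, against 42.02, 42.91 and 42.91 FPKM with LV-SNORA28. All LV-SNORA28 libraries were below all LV-NC libraries. Its log2 fold change of -0.21 (SE 0.07) nevertheless missed the threshold (limma adjusted p 0.104). It passed under quantile normalization, with a log2 fold change of -0.26 and a limma adjusted p of 0.0456. Since a ratio within a library does not depend on how libraries are scaled, TOMM20 was also divided by TOMM22. The pair was chosen after the values were seen, so the ratio is given without a test. It was 1.22, 1.2 and 1.23 in LV-NC and 1.71, 1.88 and 1.9 in LV-SNORA28, with little spread within LV-NC. That the groups stayed apart in this ratio was fixed in advance. TOMM20 was higher and TOMM22 lower in every LV-SNORA28 library, so the ratio adds nothing to the separate values. TOMM70, the receptor for carrier proteins and a docking site for cytosolic chaperones, had 18.6 ± 0.751 FPKM in LV-NC and 18.8 ± 1.79 FPKM in LV-SNORA28 (SD, n = 3 each), with a log2 fold change of 0.012 that turned to -0.014 with nuclear scaling and to -0.070 under quantile normalization. TOMM20L was listed at 0.18, 0 and 0 FPKM with LV-NC, against 0, 0.09 and 0.11 FPKM with LV-SNORA28.

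The 3' UTRs were searched for 1 short stretch of letters taken from LV-NC. The methods of the study give a short sequence for LV-NC that is the same as that of its control short hairpin, and GTGTCAC is a 7-base stretch of it. These 7 bases had already stood out in earlier results of the same libraries, so a match in a gene that rose is no independent evidence. On the sense strand of the 3' UTRs of the canonical transcripts, GTGTCAC was found in 1 of the 25 genes (4%), against 9.70% of 10539 tested genes with a 3' UTR. The gene was TOMM20, with 1 match in 2723 bases, starting at base 1889. No other stretch of the LV-NC sequence was searched. The 25 translocase 3' UTRs had a median length of 838 bases against 1290 in all tested genes. The site lies in the 3' UTR of TOMM20 at chr1:235110160-235110184 on the minus strand (GRCh38). It is shown 5′ to 3′ as the only match among the 25 genes, with the 7 shared bases in capitals.
TOMM20: atgagctggGTGTCACttggctctg
A match of letters is not evidence of binding, and its part in the higher TOMM20 level was not tested.

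The promoters were searched for motifs in RefSeq windows (GRCh38.p14) of 250 bases before to 50 bases after the gene start, which were found for 23 of the 25 genes. CCGGAAGT, a core bound by ETS factors, was present on either strand in 6 of the 23 (26.1%), against 6.19% of 15842 protein-coding promoters and 9.87% of the 8612 whose gene was tested. GCGCATGCG, from the site of NRF1, a regulator of nuclear genes for mitochondrial proteins, was in 2 of the 23 (8.70%), TOMM7 and TIMM9, against 2.76% of protein-coding promoters and 3.84% of those tested. AAGATGGCG, from the site of YY1, was in 2 of the 23, TOMM40L and TIMM50, against 2.74% and 4.46%. The counts among the 23 were 0 for NRF1 with 1 more base of its site and 1 for YY1 with 2 more. Among protein-coding promoters these longer motifs were in 1.75% and 1.37%. No longer form of CCGGAAGT was searched. Each of the 10 promoters with a match held 1 of the 3 motifs, so that none overlapped, and 13 held none. The 6 matches to CCGGAAGT or its complement are shown 5′ to 3′ on the gene's strand, with the motif in capitals, since this was the motif found in the most promoters of the 23.
TOMM20 (chr1:235128844-235128867, minus strand): gactgggaCCGGAAGTggcgtgtg
TOMM70 (chr3:100401178-100401201, minus strand): cccttaacCCGGAAGTgatttccg
TOMM6 (chr6:41787606-41787629, plus strand): ggtagcagCCGGAAGTgccagacc
TIMM10 (chr11:57530752-57530775, minus strand): ctttcctcCCGGAAGTaacccacg
TIMM10B (chr11:6481447-6481470, plus strand): gagaggttACTTCCGGggcggcac
TIMM29 (chr19:10928713-10928736, plus strand): gggaagccACTTCCGGtaaagttg
Of these 6 genes, 1 passed the test, TOMM20, against 2 of the 24 translocase genes and 8.91% of all genes tested. TIMM44 has none of the 3 motifs in its window. Whether a motif bears on the level of its gene was not tested.

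The channel and small subunits of the TOM complex did not pass the test. TOMM40, the beta-barrel channel, was listed at 20.35, 28.5 and 26.05 FPKM with LV-NC, against 20.9, 21.64 and 32.88 FPKM with LV-SNORA28. These values overlapped widely, with a log2 fold change of -0.0068 (limma adjusted p 0.986). Its copy TOMM40L was listed at 3.09, 0.97 and 3.16 FPKM with LV-NC, against 2.28, 3.85 and 3.7 FPKM with LV-SNORA28, with a log2 fold change of 0.39 (95% confidence interval -0.375 to 1.147, limma adjusted p 0.476). The low value came from LV-NC replicate 2, and the log2 fold change of TOMM40L fell to as little as 0.03 with a library left out. TOMM5 and TOMM7, small subunits that stabilise the channel, had log2 fold changes of 0.027 and 0.036 (limma adjusted p 0.850 and 0.869), and both turned negative under quantile normalization, at -0.062 and -0.014. TOMM5 overlaps the protein-coding genes ENSG00000256966 and ENSG00000255872 on its own strand, so its reads are uncertain. TOMM6, the other small subunit, was listed at 5.61, 4.79 and 1.14 FPKM with LV-NC, against 5.12, 11.67 and 4.62 FPKM with LV-SNORA28. LV-NC replicate 3 was low and LV-SNORA28 replicate 2 was high, so that its log2 fold change of 0.80 had an interval from -0.39 to 2.00 and a limma adjusted p of 0.343. TOMM6 overlaps another protein-coding gene, ENSG00000124593, on its own strand, and its reads are uncertain. TOMM34, a cytosolic co-chaperone that carries the TOMM name, had 34.1 ± 2.08 FPKM in LV-NC and 33.1 ± 0.894 FPKM in LV-SNORA28 (SD, n = 3 each), with a log2 fold change of -0.040 (limma adjusted p 0.728).

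In the TIM23 complex the scaffold of the import motor rose while the channel and receptor subunits did not pass. TIMM44 (ENSG00000104980; chromosome 19, 7926718 to 7943667, minus strand), which anchors the mitochondrial HSP70 at the channel exit, was listed at 10.93, 10.31 and 12.21 FPKM with LV-NC, against 14.53, 14.07 and 13.92 FPKM with LV-SNORA28. Every LV-SNORA28 library lay above every LV-NC library. Its mean rose from 11.2 ± 0.969 to 14.2 ± 0.318 FPKM (SD, n = 3 each). The log2 fold change was 0.32 ± 0.08 (SE; limma adjusted p 0.0473). The call was close to the threshold and was lost with nuclear scaling (log2 fold change 0.30, limma adjusted p 0.0688), under quantile normalization (0.23, 0.104) and without LV-NC replicate 2 (0.27, 0.109). With 1 library left out, the limma adjusted p of TIMM44 was between 0.0477 and 0.135, and it stayed below 0.05 only without LV-NC replicate 3.

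TIMM23, the channel subunit, was listed at 46.37, 55.56 and 55.55 FPKM with LV-NC, against 57.92, 55.46 and 57.06 FPKM with LV-SNORA28. LV-NC replicate 1 was the lowest library, and the log2 fold change was 0.12 (95% confidence interval -0.08 to 0.32, limma adjusted p 0.409). TIMM17A and TIMM17B, alternative partners of TIMM23, had log2 fold changes of -0.09 and -0.13 (limma adjusted p 0.406 and 0.450). TIMM50, the receptor that takes presequences from the TOM complex, had 8.41 ± 0.821 FPKM in LV-NC and 7.97 ± 0.162 FPKM in LV-SNORA28 (SD, n = 3 each), with a log2 fold change of -0.066 (limma adjusted p 0.634). TIMM21, which links the complex to the outer membrane, had a log2 fold change of 0.071 (limma adjusted p 0.819), which turned to -0.014 under quantile normalization.

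**Figure D3:**
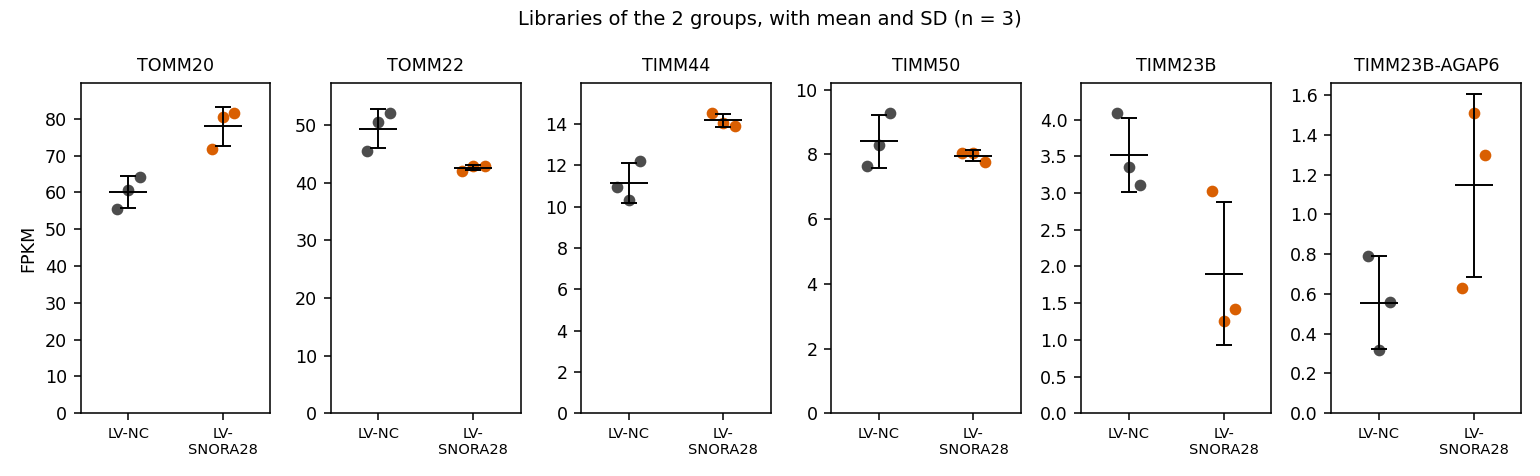
FPKM in each library (points) with the mean and SD of 3 libraries (black bars) for TOMM20, TOMM22, TIMM44, TIMM50, TIMM23B and the readthrough TIMM23B-AGAP6, each axis starting at 0. The groups do not overlap for TOMM20, TOMM22, TIMM44 and TIMM23B, with TOMM20 and TIMM44 higher and TOMM22 and TIMM23B lower in LV-SNORA28, and they overlap for TIMM50 and the readthrough.

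TIMM23B (ENSG00000204152; chromosome 10, 49942049 to 49974850, plus strand), a close copy of TIMM23, had the most negative log2 fold change of the 24 genes. It was listed at 4.09, 3.36 and 3.11 FPKM with LV-NC, against 3.03, 1.26 and 1.42 FPKM with LV-SNORA28. LV-SNORA28 replicate 1 lay just under the LV-NC libraries and the other LV-SNORA28 libraries far under them. The log2 fold change was -0.68 (SE 0.23, 95% confidence interval -1.23 to -0.14) and missed the threshold (limma adjusted p 0.111). It was -0.94 once LV-SNORA28 replicate 1 was left out (limma adjusted p 0.0282). The study screened genes with a fold change above 1.5 and p below 0.05. These limits were applied here to the limma fold change of FPKM + 1 and its unadjusted p, which need not match the fit of the study. They were met by 1 of the 24 genes, TIMM23B, against 3.79% of all genes tested. The readthrough TIMM23B-AGAP6, which shares exons and strand with TIMM23B, was listed at 0.79, 0.32 and 0.56 FPKM with LV-NC, against 0.63, 1.51 and 1.3 FPKM with LV-SNORA28. It was highest in the same LV-SNORA28 libraries in which TIMM23B was lowest. The sum of both was 4.88, 3.68 and 3.67 FPKM in LV-NC and 3.66, 2.77 and 2.72 FPKM in LV-SNORA28. The readthrough took 8.7% to 16.2% of that sum in LV-NC, 17.2% in LV-SNORA28 replicate 1, and 54.5% and 47.8% in LV-SNORA28 replicates 2 and 3. How reads were divided among TIMM23, TIMM23B and the readthrough is not known, so these values are uncertain.

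Neither subunit of the TIM22 complex passed. TIMM22, its channel, was listed at 5.99, 7.42 and 6 FPKM with LV-NC, against 7.81, 7.06 and 8 FPKM with LV-SNORA28, with a log2 fold change of 0.21 (limma adjusted p 0.216). TIMM29, a subunit found in animals, was listed at 4.32, 5.1 and 5.17 FPKM with LV-NC, against 5.78, 5.54 and 5.89 FPKM with LV-SNORA28. All LV-SNORA28 libraries were above all LV-NC libraries for TIMM29, with a log2 fold change of 0.20 (limma adjusted p 0.164).

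None of the 6 small TIM chaperones passed the limma test at an adjusted p below 0.05, against 8.91% of all genes tested. At an unadjusted p below 0.05 in limma there were 0 of the 6, against 28.0% of all genes tested. TIMM9 and TIMM10, which form a hexameric chaperone together, averaged 7.19 and 24.3 FPKM, and the ratio of TIMM10 to TIMM9 was 3.38, 4.02 and 3.12 in LV-NC and 4.52, 2.62 and 2.91 in LV-SNORA28. Their log2 fold changes were 0.15 and 0.066 (limma adjusted p 0.536 and 0.851), and that of TIMM10 turned to -0.025 under quantile normalization. TIMM13, the partner of TIMM8A, had 29.2 ± 2.40 FPKM in LV-NC and 30.4 ± 0.723 FPKM in LV-SNORA28 (SD, n = 3 each), with a log2 fold change of 0.058 that turned to -0.036 under quantile normalization. TIMM8A, the gene of deafness-dystonia syndrome, was listed at 2.93, 2.09 and 3 FPKM with LV-NC, against 3.02, 3.57 and 3.07 FPKM with LV-SNORA28. LV-SNORA28 replicate 1 exceeded LV-NC replicate 3 only slightly, and the log2 fold change of 0.21 had a limma adjusted p of 0.320. TIMM8B and TIMM10B had log2 fold changes of 0.17 and -0.20 (limma adjusted p 0.265 and 0.656). TIMM10B, which escorts cargo to TIM22, overlaps ENSG00000283977 on its own strand.

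Ratios between copies were compared within libraries, since such ratios are free of the scaling. With 3 against 3 libraries an exact permutation test cannot go below p = 0.1, and no pair could pass. TIMM17A to TIMM17B was 6.73 ± 1.08 in LV-NC and 6.99 ± 0.39 in LV-SNORA28 (SD, n = 3 each; exact two-sided permutation p = 0.7, adjusted over 4 pairs 0.7). TIMM8A to TIMM8B was 0.24 ± 0.03 and 0.25 ± 0.02 (exact permutation p = 0.4, adjusted 0.7, n = 3 each). TOMM40 to TOMM40L was 6.59, 29.38 and 8.24 in LV-NC and 9.17, 5.62 and 8.89 in LV-SNORA28 (exact permutation p = 0.6, adjusted 0.7), and its log2 difference of -0.60 turned to 0.065 without LV-NC replicate 2. TIMM23 to TIMM23B was 11.34, 16.54 and 17.86 in LV-NC and 19.12, 44.02 and 40.18 in LV-SNORA28, the 1 pair without overlap (exact permutation p = 0.1, the smallest possible, adjusted 0.4).

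The genes that work beside the translocases were followed with a list of 24 import factors. Of these, 1 rose and 0 fell at an adjusted p below 0.05 in limma (4.17%, against 8.91% of all genes tested). The gene that rose was PMPCB, the catalytic subunit of the peptidase that removes presequences. It was listed at 7.25, 8.4 and 8.52 FPKM with LV-NC, against 10.14, 10.9 and 11.13 FPKM with LV-SNORA28, and its log2 fold change was 0.37 ± 0.08 (SE; limma adjusted p 0.0390). Under quantile normalization it was 0.28, with a limma adjusted p of 0.103, and with any 1 library left out the limma adjusted p was between 0.0675 and 0.127. At an unadjusted p below 0.05, 8 of the 24 factors were higher (22.0% of all genes tested) and 0 were lower (6.08%). The groups did not overlap in 12 of them, all higher in LV-SNORA28, against 27.0% of all genes tested. The median log2 fold change of the 24 factors was 0.14, beside 0.0851 for all genes tested. By role, 0 of 7 genes of the presequence motor passed, as did 0 of 3 of the disulfide relay, 0 of 4 of the sorting and assembly machinery, 0 of 3 insertases and 0 of 1 partner of TIM22, against 1 of 6 peptidases.

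Pseudogenes named after a translocase gene were examined because reads can be shared with their parents. Of 21 such loci, 2 had a mean of at least 1 FPKM. TOMM20P4, a processed copy of TOMM20 on chromosome X, was listed at 2.65, 3.74 and 4.88 FPKM with LV-NC, against 5.16, 4.56 and 4.62 FPKM with LV-SNORA28, with a log2 fold change of 0.31 (limma adjusted p 0.294). Adding it to TOMM20 gave 63.8 ± 5.49 FPKM in LV-NC and 82.8 ± 4.99 FPKM in LV-SNORA28 (SD, n = 3 each). The groups stayed apart, but this was fixed in advance, as TOMM20P4 never exceeded 5.16 FPKM. TOMM20 alone was at most 64.09 FPKM with LV-NC and at least 71.89 FPKM with LV-SNORA28. How reads were shared was not tested. TOMM40P4, a copy of TOMM40 on chromosome 2, had 1.80 ± 0.778 FPKM in LV-NC and 1.58 ± 0.045 FPKM in LV-SNORA28 (SD, n = 3 each), with a log2 fold change of -0.080 (limma adjusted p 0.839).

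The 2 genes that passed and the 2 that were lower without overlap were set side by side under each processing. A fit without a trend, without a filter, at a mean of at least 5 FPKM or with the replicate block cannot move a log2 fold change. Under quantile normalization, nuclear scaling, a pseudocount of 0.1 and each library left out, TOMM20 and TIMM44 were positive and TOMM22 and TIMM23B negative. The log2 fold change ranged from 0.29 to 0.43 for TOMM20, from 0.23 to 0.39 for TIMM44, from -0.26 to -0.17 for TOMM22 and from -0.95 to -0.53 for TIMM23B. Past the threshold were 4 of 13 alternatives for TOMM20, 3 of 13 for TIMM44, 1 of 13 for TOMM22 and 1 of 12 for TIMM23B.

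**Figure D4:**
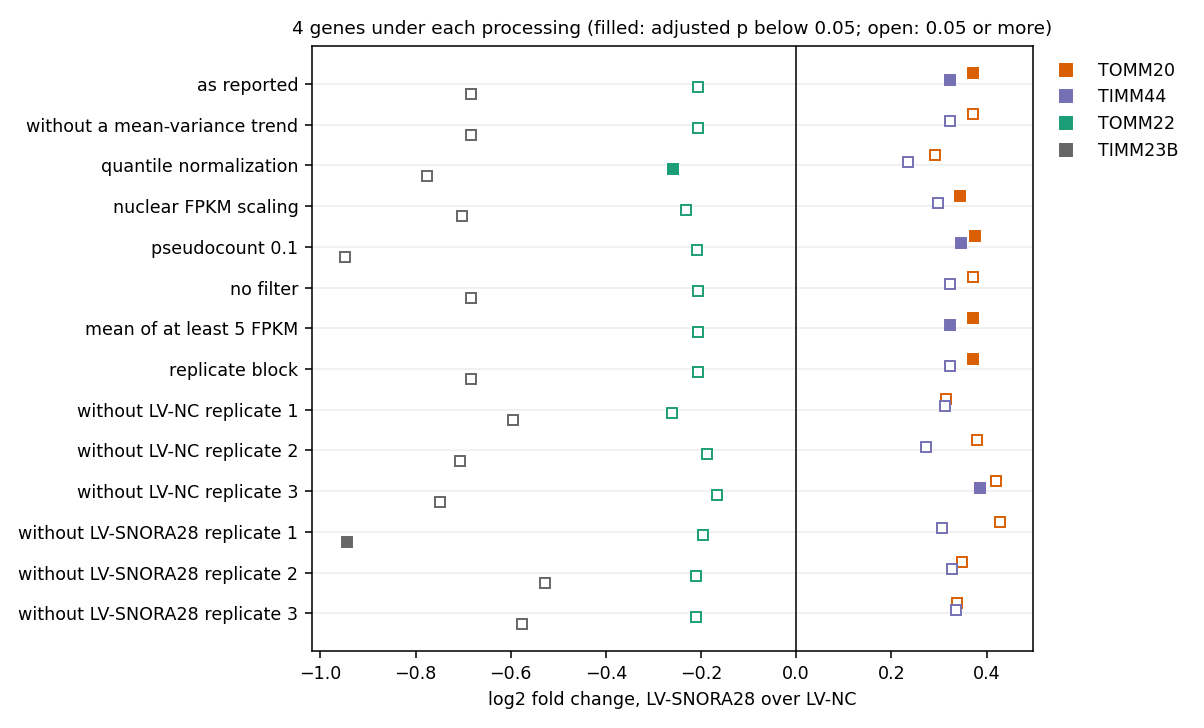
Log2 fold change (LV-SNORA28 over LV-NC) of TOMM20, TIMM44, TOMM22 and TIMM23B as reported and under each alternative processing. Filled squares have a limma adjusted p below 0.05 and open squares do not, and TOMM20 lies between 0.29 and 0.43. TIMM23B has no value at a mean of at least 5 FPKM, where it was not tested.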

How the data were processed

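Poly(A)-selected RNA of 3 LV-NC and 3 LV-SNORA28 libraries was sequenced by the authors with a strand-marking (dUTP) protocol. They deposited 1 table of FPKM values per library, with 2 decimals, for 60612 Ensembl genes. The submitters' processing notes name, among others, cutadapt 1.9, HISAT2 2.2.1, StringTie 2.1.6 and the build hg38, without roles. The annotation release and mapped totals are not given in the sources used here, so depth is unknown and no counting interval was attached. Symbols, coordinates and 3' UTRs (of the canonical transcript) came from GENCODE release 44 (GRCh38), which matched 60401 identifiers and left 211 without a symbol.

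Values were transformed to log2(FPKM + 1), which understates changes of low genes, and genes averaging 1 FPKM or more were fitted on group with limma 3.58.1 in R 4.3.3 (lmFit, eBayes with trend, two-sided, Benjamini-Hochberg over 12076 genes). The fit was tried on simulated data, in which 200 genes were changed by more than TOMM20 or TIMM44 were here. How well it recovers changes as small as those of TOMM20 and TIMM44 was not tested. Ratios were tested in Python 3.11.15 with scipy 1.17.1. The members and lists were chosen with earlier results of these data known. All 25 translocase genes were named, with import factors at an adjusted p below 0.05 and pseudogenes with a mean of at least 1 FPKM. Alternatives were no trend, quantile normalization, nuclear scaling, a pseudocount of 0.1, no filter and a mean of at least 5 FPKM. Further ones were the replicate number as a block, the threshold of the study and each library left out. The threshold of the study was applied to the limma fold change and its unadjusted p.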

Additional observations from a re-analysis of the deposited data

How the results depend on the processing

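Depth is unknown, and genes near 1 FPKM are imprecise. The 2 translocase genes called became 0 without a trend and 0 without a filter (32761 genes tested), 1 under quantile normalization (TOMM22), 1 with nuclear scaling (TOMM20) and 1 at the threshold of the study (TIMM23B), with 0 to 1 when a library was left out and fewer samples remained. Calls among all genes tested fell as well, from 1076 to 979 without a trend, 826 under quantile normalization and 879 with nuclear scaling. They were 397 without a filter, 278 to 629 with a library left out and 458 at the threshold of the study. The 1 import factor called became 0 under quantile normalization, 0 without a filter and 0 at the threshold of the study, with 0 to 1 when a library was left out (the 1, without LV-NC replicate 3, was not PMPCB). A pseudocount of 0.1 and a mean of at least 5 FPKM kept both counts. The median log2 fold change of the translocase genes, 0.062, was -0.0196 under quantile normalization, which by construction centres the libraries. This median was 0.0359 with nuclear scaling, and 0.0048 to 0.0952 with 1 library left out.

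Same-numbered libraries did not deviate together (correlations of -0.044, 0.091 and 0.010 across genes), so no shared effect of the number was seen. The labels do not say whether same-numbered libraries were prepared as pairs. With the replicate number as a block, 1 translocase gene (TOMM20, adjusted p 0.0436 in limma) and 0 import factors were called, against 510 of all genes in place of 1076.

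Signs turned only for values that had not passed. Under quantile normalization these were TIMM21 (-0.014), TIMM13 (-0.036), TIMM10 (-0.025), TOMM70 (-0.070), TOMM5 (-0.062) and TOMM7 (-0.014), and with nuclear scaling TOMM70 (-0.014). With 1 library left out, log2 fold changes ranged from -0.032 to 0.23 for TIMM21, -0.075 to 0.22 for TIMM10, -0.047 to 0.14 for TOMM7, -0.21 to 0.11 for TOMM40, -0.044 to 0.085 for TOMM70, -0.035 to 0.061 for TOMM5, -0.00013 to 0.23 for TIMM9 and -0.33 to 0.090 for TOMM40P4. The log2 difference of ratios ranged from -0.031 to 0.19 for TIMM17A to TIMM17B and from -1.01 to 0.065 for TOMM40 to TOMM40L. The cause was not tested.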
